A study of Mus musculus with 7 samples.

Results

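The chromatin of 5 cytokine receptor genes was examined in CD4+ T cells from mice infected with the helminth Nippostrongylus brasiliensis. The genes were Il2ra, Il2rb, Il4ra, Il7r and Il21r, which encode chains of the receptors for IL-2, IL-4, IL-7 and IL-21. Every region of the table of normalized values that overlapped the GENCODE mm10 body of 1 of these genes, or 10 kb on either side of it, was taken in all 7 libraries. The rule gave 114 of 113820 regions, of which 36 lay at Il2ra, 13 at Il2rb, 19 at Il4ra, 20 at Il7r and 26 at Il21r. No measured value entered the choice among the regions of the table, although the genes were chosen with earlier results of these data known. The regions themselves were called as peaks in the replicates of the study, so a region can be in the table through 1 population alone.

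The study asked how the chromatin of IL-4-expressing CD4+ T cells differs between the lung and its draining lymph node, and it used ATAC-seq, in which a transposase cuts and tags open DNA so that insertions in a region report its accessibility. All mice were C57BL/6 and all were infected with 500 L3 larvae. All cells were sorted on day 8 as live CD3+ CD4+ cells without CD11b, CD11c, CD8, B220, NK1.1 or Ter119. LN IL-4+ cells (n = 2 libraries) were GFP+ cells of the mediastinal lymph node and lung IL-4+ cells (n = 3) were GFP+ cells of the lung, both from IL-4 4get reporter mice, whose GFP marks transcription of the Il4 locus. Lung IFNγ+ cells (n = 2) were YFP+ cells of the lung of IFN-gamma GREAT reporter mice, so that the cytokine and the reporter line cannot be told apart between the lung populations. The ages and the sexes of the mice are not given in the sources used here, uninfected mice and reporter-negative cells were not analysed here, and the study describes 2 to 3 mice from 1 experiment, so the p-values measure the spread between these few libraries.

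IL-2, IL-4, IL-7 and IL-21 belong to a family of cytokines whose receptors share the common gamma chain and signal through JAK1 and JAK3. Il2ra encodes CD25, the alpha chain that raises the affinity for IL-2 and is itself induced by activation and STAT5, while Il2rb encodes the signalling chain that IL-2 shares with IL-15. Il4ra encodes the chain that binds IL-4 and is shared with IL-13, Il7r encodes CD127, which naive and memory T cells use for survival signals and which is also part of the TSLP receptor, and Il21r encodes the specific chain for IL-21, a cytokine made by follicular helper T cells.

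Most of the differences described here lay at Il2ra and Il7r, and reference sequence from some of their regions is given so that the sites can be located. The promoter sequence is the stretch before the transcription start, and the others are centres of regions, not all of which passed a test. The called region at the 3′ end of Il2ra, described below, is not shown. The sequences are from the GRCm38.p6 reference, 5′ to 3′ on the strand of the gene, and capitals mark matches to a motif. Il2ra lies on the plus strand of chromosome 2 (chr2:11642807-11693193) and Il7r on the minus strand of chromosome 15 (chr15:9505788-9530176). For the Il2ra promoter, the 250 bases before the RefSeq transcription start (chr2:11642542-11642791, plus strand) are shown because they fall inside a region that passed the test between the IL-4+ populations. RefSeq promoters were matched for 4 of the 5 genes. The sequences of 2 intronic regions of Il2ra follow, the first (chr2:11644645-11644944, plus strand) because it passed the same test and the other (chr2:11653272-11653571, plus strand) because it was the most accessible region of that locus. For Il7r the intronic region that passed the test (chr15:9523805-9524104, minus strand) and the most accessible region of the locus, which lies upstream of the gene (chr15:9533341-9533640, minus strand), are shown.
Il2ra promoter: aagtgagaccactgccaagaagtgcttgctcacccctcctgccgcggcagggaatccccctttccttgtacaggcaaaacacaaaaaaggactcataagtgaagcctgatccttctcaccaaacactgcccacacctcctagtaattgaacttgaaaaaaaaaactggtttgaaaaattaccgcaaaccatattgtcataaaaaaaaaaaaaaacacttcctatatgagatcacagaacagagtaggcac
Il2ra intron at 1.99 kb: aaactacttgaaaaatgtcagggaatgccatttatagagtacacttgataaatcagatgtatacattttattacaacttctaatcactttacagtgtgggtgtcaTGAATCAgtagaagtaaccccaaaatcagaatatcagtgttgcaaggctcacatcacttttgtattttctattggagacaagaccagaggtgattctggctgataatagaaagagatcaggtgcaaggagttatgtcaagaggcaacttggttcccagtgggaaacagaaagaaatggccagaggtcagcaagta
Il2ra intron at 10.62 kb: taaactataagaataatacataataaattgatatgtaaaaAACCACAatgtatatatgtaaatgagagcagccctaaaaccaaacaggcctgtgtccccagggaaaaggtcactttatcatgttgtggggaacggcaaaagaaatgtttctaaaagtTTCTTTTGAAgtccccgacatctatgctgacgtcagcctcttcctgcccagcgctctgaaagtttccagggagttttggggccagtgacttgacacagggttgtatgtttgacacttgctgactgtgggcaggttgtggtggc
Il7r intron at 6.22 kb: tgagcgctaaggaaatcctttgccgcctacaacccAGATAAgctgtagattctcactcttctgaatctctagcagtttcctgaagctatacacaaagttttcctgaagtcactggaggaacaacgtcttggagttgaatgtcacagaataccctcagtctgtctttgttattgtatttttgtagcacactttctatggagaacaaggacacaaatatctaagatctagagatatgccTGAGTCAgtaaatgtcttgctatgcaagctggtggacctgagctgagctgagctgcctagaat
Il7r upstream at -3.32 kb: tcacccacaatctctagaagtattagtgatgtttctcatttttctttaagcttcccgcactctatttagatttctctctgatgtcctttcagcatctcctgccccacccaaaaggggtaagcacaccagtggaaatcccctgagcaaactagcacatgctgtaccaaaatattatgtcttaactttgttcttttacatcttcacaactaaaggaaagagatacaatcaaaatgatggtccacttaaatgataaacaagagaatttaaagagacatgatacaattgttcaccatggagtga

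The capitals at 1.99 kb of Il2ra mark TGAATCA, a match to the bZIP motif TGANTCA that AP-1 and BATF bind. At 10.62 kb they mark AACCACA, the Runx motif, and TTCTTTTGAA, in which TTC and GAA stand 4 bases apart, the spacing that STAT6 prefers. At 6.22 kb of Il7r they mark AGATAA, the core bound by factors of the GATA family. The second block of capitals in that intron, TGAGTCA, is another match to the bZIP motif. The Il2ra promoter and the upstream region of Il7r held none of the 9 motifs searched. These were the 4 just named and TTCNNNGAA for other STAT dimers, AGGTGTGA for T-box factors, TGGAAAA for NFAT, ATCAAAG for Tcf7 and GTAAACA for Foxo factors, read on both strands of the central 300 bases. Over all regions of the table the share with a match was 13% for bZIP, 11.0% for Runx, 8.12% for the STAT6 spacing and 15.2% for GATA. Over the 114 receptor regions it was 14.0%, 7.89%, 6.14% and 12.3%. The called region at the 3′ end of Il2ra, whose sequence is not shown, held a T-box and a Runx match. T-box matches were found in 1.68% of all regions and 0.877% of the receptor regions. A match is a run of letters and not a measured binding site.

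Across the table, the libraries held between 14005923 and 91681969 transposase insertions, as rebuilt from the tied values of each library, which gives lower bounds. The libraries fell into 2 classes by how widely log2 insertions per region were spread, and the classes crossed the populations. The narrow class, with an interquartile range of 1.65 to 1.74, took in replicates 2 and 3 of the lung IL-4+ cells and replicate 1 of the LN IL-4+ cells, and the wide class, with 2.89 to 3.07, took in both lung IFNγ+ libraries and the remaining library of each IL-4+ population. For the locus sums and the called regions of the receptor loci, differences between the IL-4+ populations are therefore also given within the narrow and the wide spread class. Of the 4 loci used to check the labels, Il4 and Ifng moved with the cytokine. Mean density, in normalized insertions per kb of region, was 9.63 in LN IL-4+, 11.9 in lung IL-4+ and 3.76 in lung IFNγ+ cells at Il4, and 2.17, 3.36 and 10.7 at Ifng. In the same order it was 13.2, 6.53 and 5.02 at Cxcr5 and 2.63, 8.63 and 6.59 at Il1rl1, which divided by tissue. The 5 T cell marker loci together held 9.59 to 16.3 in every library, and the CD8 loci 2.08 to 3.99.

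Of the 114 regions 5 held the 5′ end of a gene, 20 another coding exon and 11 an untranslated exon, while 42 were intronic, 15 upstream and 21 downstream. A mean density of 5 or more was reached at 31 of them in LN IL-4+, 60 in lung IL-4+ and 36 in lung IFNγ+ cells, and these are called accessible. Il2ra had 6, 17 and 12 accessible regions in the populations in that order, Il7r had 4, 7 and 6, Il21r had 13, 19 and 9, Il4ra had 5, 9 and 6, and Il2rb had 3, 8 and 3. Most lung IL-4+ libraries but no lung IFNγ+ library belonged to the narrow class, so these counts mix population with class.

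Summed over each locus, Il2ra and Il7r were more accessible in every lung IL-4+ library than in every LN IL-4+ library, and the other 3 loci overlapped between these populations. At Il2ra the density was 4.74 and 4.35 normalized insertions per kb in the LN IL-4+ libraries, 8.23, 9.71 and 10.8 in the lung IL-4+ libraries, and 7.14 and 7.84 in the lung IFNγ+ libraries. The 3 populations did not overlap, with lung IL-4+ cells highest and LN IL-4+ cells lowest. At Il7r, which has the fewest covered bases of the 5 loci (14.8 kb of regions), the density was 3.83 and 5.03 in LN IL-4+, 8.43, 9.35 and 9.10 in lung IL-4+, and 6.19 and 7.90 in lung IFNγ+ libraries. The order of the populations was that of Il2ra, again without overlap. The difference of the mean log2 sums between lung and LN IL-4+ cells was 1.07 at Il2ra and 1.03 at Il7r, each with a two-sided p = 0.1 by exact permutation, which is the lowest value possible with 3 against 2 libraries. In pooled cells, fewer cells with an open locus and less accessibility in each cell cannot be told apart.

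Il4ra held 9.93 and 6.92 normalized insertions per kb in LN IL-4+, 9.57, 15.6 and 16.4 in lung IL-4+, and 7.68 and 8.39 in lung IFNγ+ libraries. Lung IL-4+ cells were above lung IFNγ+ cells in every library there, while lung IL-4+ replicate 1 lay just under LN IL-4+ replicate 1. Il2rb held 12.2 and 7.17 in LN IL-4+, 7.17, 14.3 and 14.8 in lung IL-4+, and 7.79 and 7.84 in lung IFNγ+ libraries. The narrow-class libraries of Il2rb were high and the wide-class libraries low in both tissues. Il21r held 8.96 and 5.77 in LN IL-4+, 5.95, 9.37 and 11.6 in lung IL-4+, and 6.80 and 6.80 in lung IFNγ+ libraries, and was likewise divided by class rather than by tissue. The log2 differences between lung and LN IL-4+ cells were 0.70 at Il4ra (exact two-sided permutation p = 0.3), 0.30 at Il2rb and 0.27 at Il21r (exact permutation p = 0.5 for both).

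**Figure D1:**
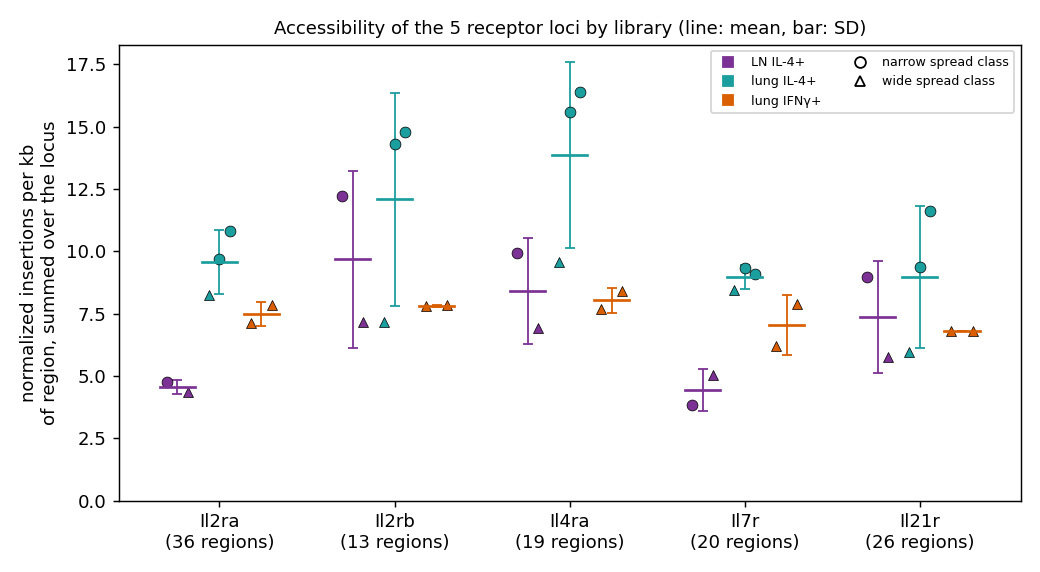
Accessibility of the 5 receptor loci in each of the 7 libraries, in normalized insertions per kb summed over all regions of a locus (vertical axis), by population (colour) and spread class (circle narrow, triangle wide), with the mean as a line and the SD as a bar. At Il2ra and Il7r both LN IL-4+ libraries lie at or under 5.03 and all lung IL-4+ libraries at or above 8.23, whereas at Il2rb, Il4ra and Il21r the IL-4+ populations overlap. Circles lie above triangles within each IL-4+ population at every locus except the LN libraries of Il7r.

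Within the spread classes the difference between the tissues was 1.11 (narrow) and 0.92 (wide) on the log2 scale at Il2ra, and 1.27 and 0.74 at Il7r. It was 0.69 and 0.47 at Il4ra, 0.26 and 0.00 at Il2rb, and 0.22 and 0.04 at Il21r. Each of the wide-class values compares 1 library with 1 library and has no replicate check. Region by region, all narrow-class libraries were set against all wide-class libraries, the lung IFNγ+ libraries included. The narrow class was higher throughout at 10 of 13 regions of Il2rb, 15 of 26 of Il21r and 8 of 19 of Il4ra. It was so at 2 of 36 of Il2ra and 1 of 20 of Il7r, against 14.8% of all regions. The median GC content of the regions was 54.4% at Il2rb, 51.9% at Il4ra and 52.1% at Il21r, against 44.7% at Il2ra, 39.4% at Il7r and 46.9% over the table. The part of base composition in the class difference was not tested.

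The comparison of lung with LN IL-4+ cells at single regions asked where within the loci the tissues differed. Il2ra was higher in the lung at all of its 36 regions and Il7r at all of its 20, with median log2 fold changes of 1.22 and 1.14, while the median over all 113820 regions was -0.03 and 47.7% of them were higher in the lung. Every lung library lay above both LN libraries at 29 regions of Il2ra and 12 of Il7r, where 13.6% of all regions did so. The corresponding counts were 4 at Il4ra, 2 at Il21r and 0 at Il2rb, with median log2 fold changes of 0.57, 0.43 and 0.52. Neighbouring regions of a locus are not independent of each other. The regions were also called as peaks in the replicates of the study, so these counts can include regions present only because the lung cells were open there.

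By limma on the log2 densities of all regions, with a Benjamini-Hochberg adjusted p below 0.05 and at least a 3-fold change required for a call, 3 receptor regions were called as more open in the lung and 0 as more open in the lymph node, where 1.05% and 0.695% of all regions were called. The called regions were 2 at Il2ra and 1 at Il7r. Without the fold threshold 4 receptor regions passed, 2 at Il2ra and 2 at Il7r, where 1.88% of all regions did. At an unadjusted p below 0.05, 25 regions of Il2ra and 12 of Il7r were higher in the lung, together with 1 at Il4ra, 1 at Il21r and 0 at Il2rb, where 8.82% of all regions were, and 0 receptor regions were higher in the lymph node, where 7.38% were. The largest log2 fold changes, 2.92 at 51.06 kb of Il2ra and 3.00 at 26.56 kb of Il7r, did not pass (limma adjusted p = 0.0786 and 0.113), and the LN libraries held 9 and 15 rebuilt insertions at the former and 24 and 0 at the latter. With voom on the rebuilt counts 1 receptor region was called higher in the lung and 0 in the lymph node, against 0.86% and 0.77% of all regions.

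**Figure D2:**
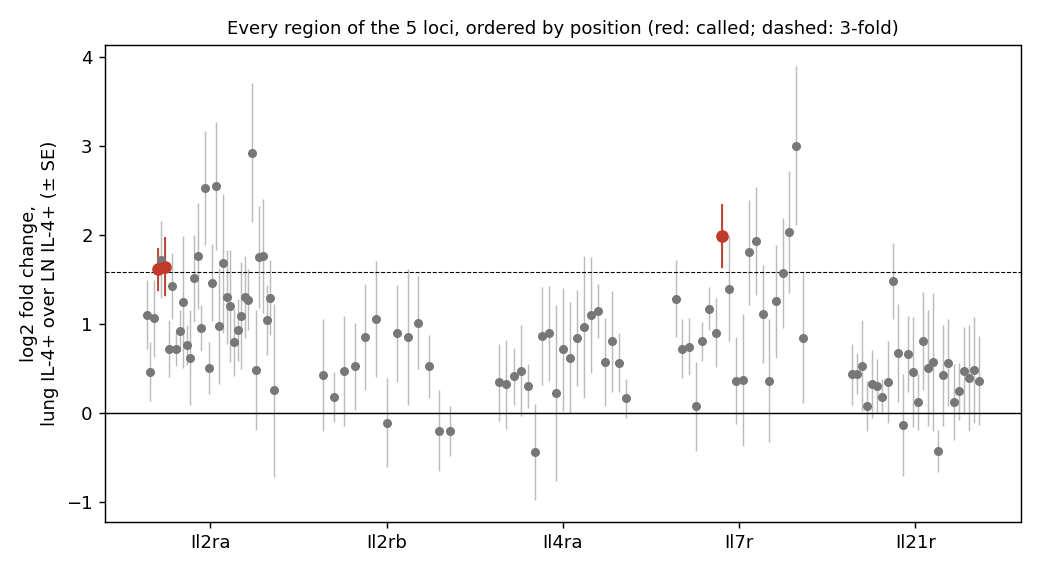
Log2 fold change between lung and LN IL-4+ cells (vertical axis, bars are the standard error from limma) for each of the 114 regions, ordered by position within each locus. The 3 called regions are red, the dashed line marks a 3-fold change, and every point of Il2ra and Il7r lies above 0.

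The Il2ra promoter region (chr2:11642446-11642940, spanning the 5′ end of the gene) had a log2 density of 3.50 and 4.31 in LN IL-4+, 5.28, 5.61 and 5.66 in lung IL-4+, and 5.35 and 5.45 in lung IFNγ+ libraries, from 158 to 2413 rebuilt insertions. Both LN libraries were low, and the lung libraries of the 2 cytokine populations differed by less than 0.4. Lung IL-4+ cells (5.52 ± 0.21, SD, n = 3) were 3.06-fold above LN IL-4+ cells (3.91 ± 0.57, n = 2), a log2 fold change of 1.61 (SE 0.24, limma adjusted p = 0.00881). Lung IFNγ+ cells (5.40 ± 0.07, n = 2) were 2.82-fold above the same LN libraries (log2 fold change 1.49, SE 0.26, limma adjusted p = 0.0124), which passed the adjusted p but not the fold change. Between the lung populations the difference was 0.12 (SE 0.24, limma adjusted p = 0.83). The tissue difference was 2.13 within the narrow and 0.97 within the wide class, and without LN IL-4+ replicate 1, the lower of the LN libraries, it was 1.21, under the 3-fold threshold. Without lung IL-4+ replicate 2 it was 1.57 (limma adjusted p = 0.0674) and without replicate 3 it was 1.54 (adjusted p = 0.0432), so the call was lost there too. It was kept in 10 of 17 other settings, and the remaining losses were with a pseudocount of 1 (1.55), a GC correction (1.57), voom on the rebuilt counts (1.45) and the replicate block (1.54, adjusted p = 0.125).

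An intron of Il2ra held the second called region (chr2:11643719-11645871, centred 1.99 kb from the start). Its log2 density was 1.78 and 1.58 in LN IL-4+, 2.90, 3.27 and 3.77 in lung IL-4+, and 2.57 and 2.62 in lung IFNγ+ libraries. The populations did not overlap and lung IFNγ+ cells lay between the IL-4+ populations. Lung IL-4+ cells were 3.11-fold above LN IL-4+ cells (log2 fold change 1.64, SE 0.33, limma adjusted p = 0.0267), with 1.74 in the narrow and 1.33 in the wide class. Lung IFNγ+ cells differed from LN IL-4+ cells by 0.91 (SE 0.36, limma adjusted p = 0.201). Of the 4 called regions this was the least stable, since it was kept in 5 of 17 other settings, while its log2 fold change ranged over all 17 from 1.39 to 1.84 and its adjusted p reached at most 0.198. Of the 7 fits that each left out 1 library, it was lost in all except the one without lung IL-4+ replicate 1, with log2 fold changes between 1.41 and 1.74.

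At Il7r the called region lay in an intron (chr15:9523512-9524397, centred 6.22 kb from the start). Its log2 density was 1.07 and 2.07 in LN IL-4+, 3.40, 3.57 and 3.70 in lung IL-4+, and 2.55 and 3.23 in lung IFNγ+ libraries, from 72 to 776 rebuilt insertions. The lung IL-4+ libraries lay close together and above all others. Lung IL-4+ cells were 3.96-fold above LN IL-4+ cells (log2 fold change 1.98, SE 0.36, limma adjusted p = 0.0185), with 2.56 in the narrow and 1.33 in the wide class. It was called in 13 of 17 other settings. The call was lost without LN IL-4+ replicate 1 (1.49, under 3-fold), lung IL-4+ replicate 2 (1.98, limma adjusted p = 0.0975) or lung IL-4+ replicate 3 (1.91, adjusted p = 0.0675). With the replicate block it was lost too (1.91, limma adjusted p = 0.129). A second intronic region of Il7r at 2.29 kb passed the adjusted p at less than 3-fold (log2 fold change 1.17, SE 0.24, limma adjusted p = 0.0296), with 2.96 and 3.62 in LN IL-4+ and 4.38, 4.48 and 4.53 in lung IL-4+ libraries, and differences of 1.54 in the narrow and 0.76 in the wide class.

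**Figure D3:**
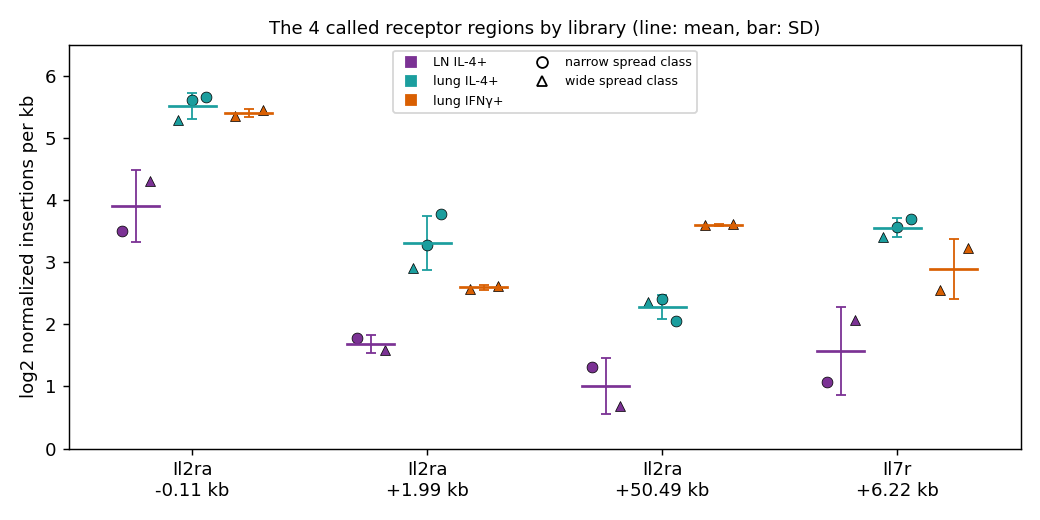
Log2 normalized insertions per kb (vertical axis) of the 4 receptor regions called in any comparison, named by the distance of their centre from the transcription start, in each library, with the mean as a line and the SD as a bar. LN IL-4+ libraries are the lowest at all 4, and lung IFNγ+ libraries are the highest at the Il2ra region at 50.49 kb (3.59 and 3.61).

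The most accessible region of Il2ra also lay in an intron, at 10.62 kb (chr2:11652897-11653947), with 4.45 and 4.90 in LN IL-4+, 5.56, 5.10 and 5.54 in lung IL-4+ and 5.41 and 5.52 in lung IFNγ+ libraries. The lung libraries were again all above the LN libraries, with a log2 fold change of 0.72 between the IL-4+ populations (SE 0.20, limma adjusted p = 0.0947), or 0.87 in the narrow and 0.66 in the wide class. The most accessible region of Il7r, upstream at -3.32 kb (chr15:9533256-9533726), held 3.97 and 5.15 in LN IL-4+, 5.42, 5.45 and 5.05 in lung IL-4+ and 4.91 and 5.53 in lung IFNγ+ libraries. It overlapped between the tissues (log2 fold change 0.74, SE 0.32, limma adjusted p = 0.282), and LN IL-4+ replicate 1 was the low library. The promoter region of Il7r (chr15:9528907-9530472) held 2.96 and 3.20 in LN IL-4+ and 3.74, 3.92 and 3.98 in lung IL-4+ libraries (log2 fold change 0.80, SE 0.22, limma adjusted p = 0.0947).

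**Figure D4:**
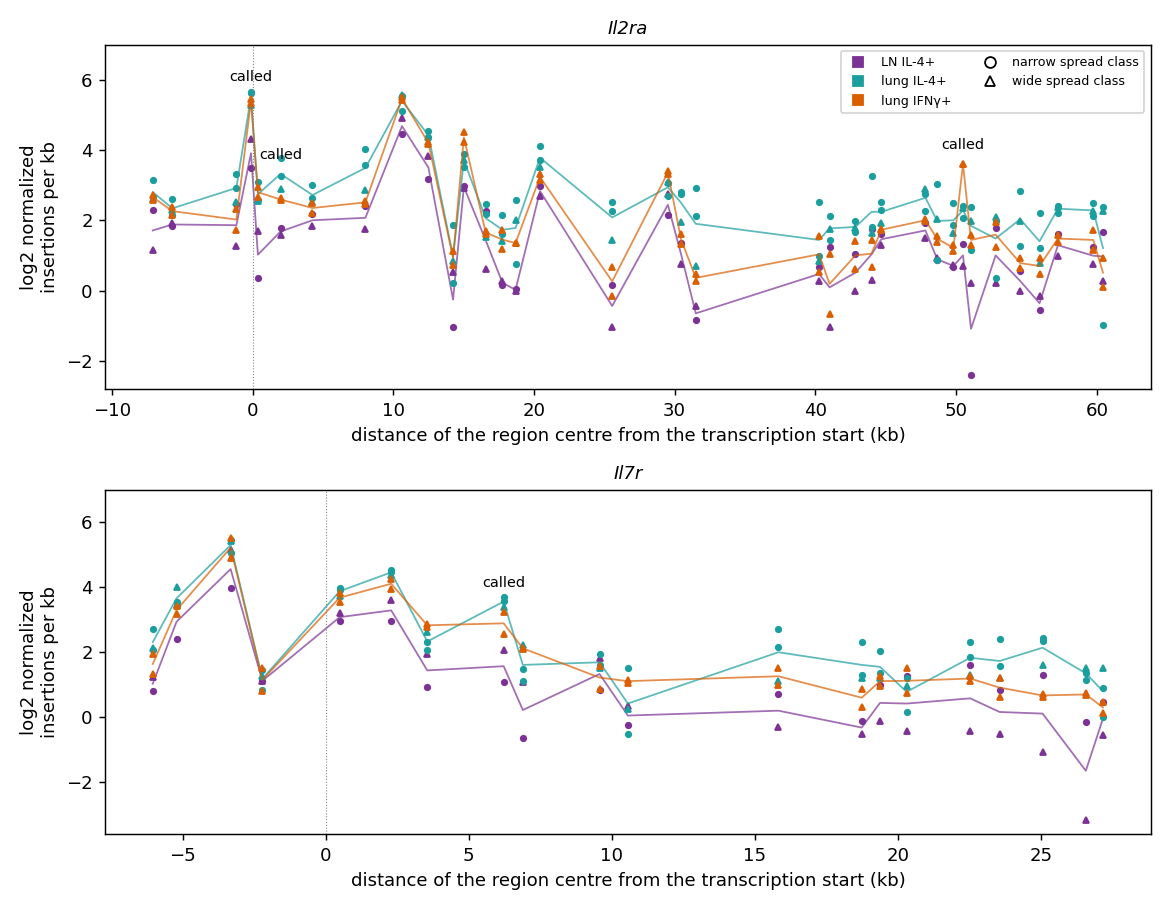
Log2 normalized insertions per kb (vertical axis) of every region of Il2ra (top) and Il7r (bottom) against the distance of its centre from the transcription start in kb, with 1 point per library and a line through each population mean. The LN IL-4+ line runs at or below the lung IL-4+ line at all 36 regions of Il2ra and all 20 of Il7r, and called regions are marked.

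The lung exceeded the lymph node within both spread classes at 34 of 36 regions of Il2ra and 16 of 20 of Il7r, and by at least 2-fold in both at 11 and 7, where 29.5% and 4.21% of all regions did so. At Il2rb, Il4ra and Il21r the lung was higher in both classes at 8 of 13, 10 of 19 and 13 of 26 regions, and 0 of them reached 2-fold in both. With the spread class as a covariate in the fit, 10 regions were called higher in the lung, 5 at Il2ra with log2 fold changes of 1.64 to 3.13 and 5 at Il7r with 1.60 to 2.81, and the share of all regions called so rose to 2.14%. The Il2ra intron at 1.99 kb was not among them (1.56, limma adjusted p = 0.00261, under 3-fold).

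**Figure D5:**
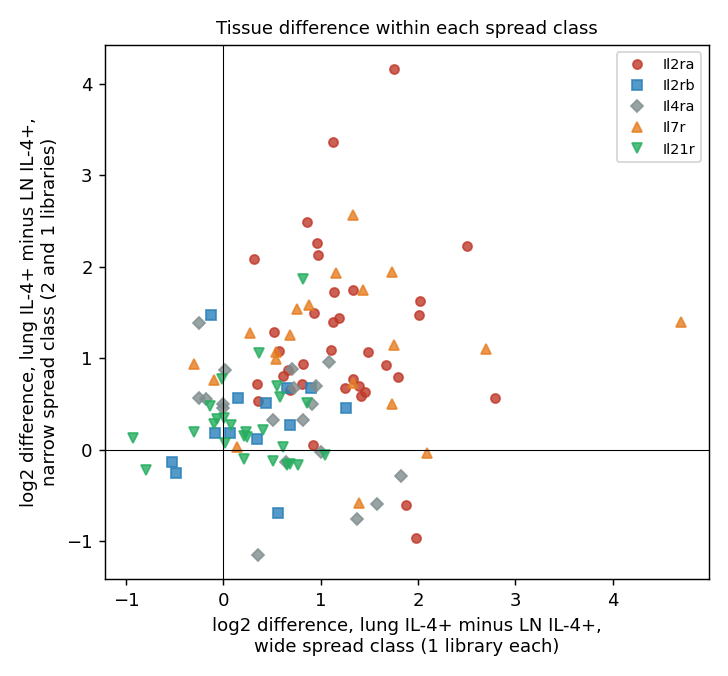
Log2 difference between lung and LN IL-4+ cells within the wide spread class (horizontal axis, 1 library each) and within the narrow class (vertical axis, 2 lung libraries and 1 LN library) for each of the 114 regions, coloured by gene. Of the Il2ra points 34 of 36 lie in the upper right quadrant, and of the Il21r points 13 of 26.

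At Il2rb, Il4ra and Il21r no region was called between the IL-4+ populations. The promoter region of Il2rb (chr15:78492021-78496258) was also its most accessible, with 4.61 and 4.04 in LN IL-4+, 3.95, 4.78 and 4.79 in lung IL-4+ and 4.04 and 4.07 in lung IFNγ+ libraries (lung against LN IL-4+ 0.18, SE 0.28, limma adjusted p = 0.827, and 0.18 and -0.09 within the narrow and the wide class). The 4 wide-class libraries were within 0.12 of each other there and all lay under the 3 narrow-class libraries. Among the accessible regions of Il2rb the widest range of population means was in a coding exon at 11.01 kb (chr15:78483796-78484720), which held 2.48 and 1.08, then 1.73, 3.15 and 3.15, then 1.56 and 1.47 in the populations in the same order. The same division by class was seen there.

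The promoter region of Il4ra (chr7:125551232-125559860) held 3.68 and 3.22 in LN IL-4+, 3.22, 4.11 and 4.24 in lung IL-4+ and 2.91 and 2.97 in lung IFNγ+ libraries. Lung IL-4+ cells were above lung IFNγ+ cells in every library there, by a log2 fold change of 0.92 (SE 0.32, limma adjusted p = 0.243), which was 0.28 within the wide class. A coding exon of Il4ra that overlaps the gene model Gm44876 (chr7:125572071-125574170) had the widest range of population means among the accessible regions of the locus, with 2.31 and 0.42, then 1.37, 3.01 and 3.02, then 1.05 and 1.24 in the populations in the same order. The most accessible region of Il4ra lay 36.87 kb from its start, beyond its 3′ end (chr7:125588685-125589303), and held 4.91 and 5.71, then 5.46, 5.49 and 5.45, then 5.68 and 5.87. It was open in every library and its populations overlapped except that both lung IFNγ+ libraries lay above the lung IL-4+ libraries. The largest log2 fold change at Il4ra between lung and LN IL-4+ cells was 1.14, at a coding exon (chr7:125574533-125586114). That difference did not pass (SE 0.30, limma adjusted p = 0.0787). Every lung IL-4+ library lay above both LN libraries there, and the difference was 0.96 within the narrow and 1.09 within the wide class.

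At Il21r, the promoter region (chr7:125603082-125607092) held 3.78 and 3.23 in LN IL-4+, 3.32, 3.91 and 4.20 in lung IL-4+ and 3.34 and 3.45 in lung IFNγ+ libraries (lung against LN IL-4+ 0.30, SE 0.30, limma adjusted p = 0.697, and 0.27 and 0.08 within the narrow and the wide class). The most accessible region, an intron at 4.53 kb (chr7:125607308-125608607), ranged from 4.13 to 4.70 over the 7 libraries. An intron at 7.97 kb (chr7:125611109-125611695) had the widest range of population means at Il21r, with 0.68 and 0.93 in LN IL-4+, 1.76, 2.26 and 2.84 in lung IL-4+ and 1.94 and 1.81 in lung IFNγ+ libraries. Both LN libraries were below all lung libraries there, and the difference between the IL-4+ populations did not pass (log2 fold change 1.48, SE 0.43, limma adjusted p = 0.108).

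The comparison of the lung populations asked which differences went with the cytokine within 1 tissue. By limma, 0 receptor regions were called in either direction, where 0.108% of all regions were called higher in lung IL-4+ and 0.387% higher in lung IFNγ+ cells, and the smallest adjusted p was 0.123. The adjusted p alone also gave 0 in either direction, against 0.151% and 0.513%. At an unadjusted p below 0.05, 11 receptor regions were higher in lung IL-4+ and 3 in lung IFNγ+ cells, against 6.36% and 8.45% of all regions, and voom on the rebuilt counts called 0 in either direction, against 0.221% and 0.738%. With array weights, which weight libraries by how well they fit the group means, 7 were called higher in lung IL-4+ cells, 3 at Il2ra, 2 at Il4ra, 1 at Il7r and 1 at Il21r, and the share of all regions called so rose to 2.74%. The region at Il21r lies downstream of the gene, 38.96 kb from its start, and also overlaps the gene Gtf3c1. Lung IL-4+ libraries were above both lung IFNγ+ libraries without overlap at 43 of the 114 regions and below them at 7, where 19.4% and 21.2% of all regions did so. The median log2 fold change over the receptor regions was 0.51, and -0.01 over all regions.

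Summed over the loci, the log2 difference between the lung populations was 0.35 at Il2ra, 0.36 at Il7r, 0.75 at Il4ra, 0.56 at Il2rb and 0.35 at Il21r, with exact two-sided permutation p between 0.1 and 0.4. Both lung IFNγ+ libraries belonged to the wide class, and against lung IL-4+ replicate 1, the only lung IL-4+ library of that class, the differences were 0.14, 0.27, 0.26, -0.12 and -0.19 in the same order of genes. At Il2rb and Il21r the direction thus turned within the class.

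The comparison of lung IFNγ+ with LN IL-4+ cells shares its LN libraries with that of the IL-4+ populations. By limma, 1 receptor region was called higher in lung IFNγ+ and 0 in LN IL-4+ cells, where 2.17% and 0.862% of all regions were called. The adjusted p alone gave 3, all at Il2ra, and 0, against 3.03% and 1.16%. At an unadjusted p below 0.05, 11 regions of Il2ra, 6 of Il7r and 2 of Il21r were higher in lung IFNγ+ cells, against 10.7% of all regions, and 1 of Il2rb was higher in LN IL-4+ cells, against 7.81%. Voom on the rebuilt counts called 1 and 0, against 3.21% and 1.97%. The libraries did not overlap and lung IFNγ+ was higher at 24 regions of Il2ra, 10 of Il7r, 7 of Il21r, 1 of Il4ra and 0 of Il2rb, where 26.5% of all regions did so, and LN IL-4+ was higher at 4 regions of Il4ra and 2 of Il2rb, where 27.2% did. The median log2 fold change was 0.57 at Il2ra and 0.69 at Il7r, and -0.24 at Il2rb and -0.09 at Il21r. The locus sums differed by 0.72 at Il2ra and 0.67 at Il7r, each with an exact permutation p = 0.33, the lowest value possible with 2 against 2 libraries.

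The called region was at the 3′ end of Il2ra (chr2:11692934-11693651), where it spans the end of the last exon 50.49 kb from the start. Its log2 density was 1.32 and 0.69 in LN IL-4+, 2.36, 2.41 and 2.06 in lung IL-4+, and 3.59 and 3.61 in lung IFNγ+ libraries, from 52 to 828 rebuilt insertions. The populations did not overlap, and here lung IFNγ+ cells were highest, unlike the locus as a whole. Lung IFNγ+ cells were 6.04-fold above LN IL-4+ cells (log2 fold change 2.60, SE 0.37, limma adjusted p = 0.00527), and 2.91 on the log2 scale within the wide class. Lung IL-4+ cells differed from LN IL-4+ cells by 1.27 (SE 0.34, limma adjusted p = 0.0773) and from lung IFNγ+ cells by -1.32 (SE 0.34, adjusted p = 0.123). The call was kept in 14 of 17 other settings and was lost without lung IFNγ+ replicate 1 (2.61, limma adjusted p = 0.122) or replicate 2 (2.58, adjusted p = 0.108) and in 1 setting without a library left out. An intron of Il2ra at 15.02 kb passed the adjusted p at less than 3-fold, with 2.98 and 2.92 in LN IL-4+, 3.72, 3.51 and 3.88 in lung IL-4+ and 4.23 and 4.50 in lung IFNγ+ libraries (lung IFNγ+ against LN IL-4+ 1.42, SE 0.24, limma adjusted p = 0.0117). There too lung IFNγ+ libraries were the highest.

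Markers of other cells moved with some of these results. The regulatory T cell locus Foxp3, whose cells carry high CD25, had a density of 11.6 and 10.1 in LN IL-4+, 13.1, 15.3 and 16.6 in lung IL-4+, and 9.60 and 11.3 in lung IFNγ+ libraries, so it was highest in the population in which the Il2ra locus was highest. Of the NK cell list 1 of 2 genes had regions, Klrb1c, with 8.82 to 9.28 in LN IL-4+, 9.51 to 9.94 in lung IL-4+ and 15.2 to 15.6 in lung IFNγ+ libraries. The myeloid list, with 3 of 4 genes, held 2.45 to 2.64, 2.85 to 3.29 and 6.89 to 7.95 in the same order, and like Klrb1c it was highest where the 3′ region of Il2ra was highest. The B cell list, with 3 of 4 genes, held 12.2 to 15.4, 10.9 to 11.9 and 10.1 to 10.8, highest in the lymph node. The proteins of Klrb1c, Itgam and Itgax (NK1.1, CD11b and CD11c) were among those the sort removed. The part of these cells in the receptor results was not tested.

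The rest of the pathway was described by a list of 31 genes with 556 regions, 6 of which also lie at a receptor locus. Between lung and LN IL-4+ cells, 3 of its regions were called higher in the lung and 1 in the lymph node (0.54% and 0.18%), below the 1.05% and 0.695% of all regions, with a median log2 fold change of 0.20. Between the lung populations 1 and 0 were called (0.18% and 0.0%, against 0.108% and 0.387% of all regions). Between lung IFNγ+ cells and those of the lymph node they numbered 1 and 5 (0.18% and 0.899%, against 2.17% and 0.862%). Of the calls described here that at Bcl6 was kept in 6 of 17 other settings, that at Stat5b in 8 and the others in 10 to 15. Among the other receptor chains, Il10ra, the IL-10 receptor alpha chain, had a region at 4.4 kb that was higher in lung IL-4+ cells than in LN IL-4+ cells (log2 fold change 1.63, SE 0.24, limma adjusted p = 0.00839) and than in lung IFNγ+ cells (1.96, SE 0.24, adjusted p = 0.0145), and another at 17.3 kb that was higher than in LN IL-4+ cells (1.74, SE 0.35, adjusted p = 0.0264). Pathway calls were not split by spread class. The Il10ra locus density was 8.93 in the wide-class and 15.5 and 17.9 in the narrow-class lung IL-4+ libraries. It was 6.96 in the narrow-class and 3.95 in the wide-class LN IL-4+ library, and 5.17 and 5.46 in the lung IFNγ+ libraries, both wide-class. Il6st, the signal-transducing gp130 chain of the IL-6 receptor, had a region at 46.8 kb that was lower in lung IL-4+ cells (-2.01, SE 0.29, limma adjusted p = 0.00826) and in lung IFNγ+ cells (-1.98, SE 0.32, adjusted p = 0.00908) than in LN IL-4+ cells. A region of Il6ra, which encodes the IL-6-binding chain, was less accessible in lung IFNγ+ cells than in the lymph node (-2.07, SE 0.31, limma adjusted p = 0.00615).

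The common gamma chain itself, Il2rg, had 0 called regions of 14, with a locus density of 6.91 and 8.54 in LN IL-4+, 9.42, 9.73 and 11.8 in lung IL-4+ and 7.81 and 8.78 in lung IFNγ+ libraries. Its lung IL-4+ libraries lay above all others, by a log2 difference of 0.42 from LN IL-4+ cells (exact two-sided permutation p = 0.1). The ligand genes Il2, Il7, Il9, Il15 and Il21 had 0 called regions of 25. Of all regions at most 2.17% were called in any comparison and direction. Counts of 0 in 14 or 25 regions are near that share. At the Il21 locus the density was 7.13 and 7.88 in LN IL-4+, 4.28, 3.81 and 4.41 in lung IL-4+ and 5.56 and 5.28 in lung IFNγ+ libraries, so that it was highest in LN IL-4+ cells, opposite to Il2ra and Il7r.

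Of the kinases and STATs, 2 regions of 220 were called, both less accessible in lung IFNγ+ cells than in the lymph node. That is 0.909%, near the 0.862% of all regions called in that direction. They were 1 shared by Stat3 and Stat5a (-2.25, SE 0.38, limma adjusted p = 0.0106) and 1 at Stat5b (-1.75, SE 0.41, adjusted p = 0.0424). Of the targets and feedback genes, Cish, a STAT5-induced inhibitor of cytokine signalling, had a region at 6.9 kb that was more accessible in the lung than in the lymph node (log2 fold change 1.71, SE 0.25, limma adjusted p = 0.00865). Against LN IL-4+ cells, a region 98.9 kb from the start of Prdm1, which encodes Blimp-1, was higher in lung IFNγ+ cells (1.79, SE 0.25, limma adjusted p = 0.00496). A region 26.2 kb from the start of Bcl6, the follicular helper repressor that opposes it, was lower there (-1.62, SE 0.34, limma adjusted p = 0.0272). Both regions lie beyond the 3′ end of their gene. The Bcl6 locus as a whole had a mean density of 10.8 in LN IL-4+ and 10.6 in lung IFNγ+ cells, and the Prdm1 locus 9.31 and 11.2.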

How the data were processed

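ATAC-seq was analysed from the table of log2 values that the authors deposited for 7 libraries. The authors mapped reads to GRCm38/mm10 with Bowtie2 2.3.2, marked duplicates, removed mitochondrial and blacklisted reads and reads with a mapping quality under 10, called summits per replicate with MACS2 2.1.1, merged regions between replicates, counted insertions and normalized them with voom (limma 3.38.3). The deposited log2 values are a density of normalized insertions per kb, scaled for library size. Their sorted values after undoing the length nearly coincide between libraries, as after quantile normalization, a step that is not given in the sources used here. Start and end give the region length as in BED files, and 1-based starts are printed. Insertion counts were rebuilt from values tied to 8 decimals and are lower bounds.

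All 113820 regions entered a limma 3.58.1 fit of these log2 values in R 4.3.3 (lmFit with 1 mean per population, eBayes with a variance trend, Benjamini-Hochberg over all regions within a contrast). Regions with an adjusted p below 0.05 and at least 3-fold were called. No filter and no pseudocount were used. Locus sums were compared by exact permutation of libraries (Python 3.11.15, scipy 1.17.1). Regions whose mean density reached 5 in any population counted as accessible, which held for 61 of the 114. Genes are from GENCODE M21. Regions were named if they were called, overlapped a gene's transcription start, had the highest mean of their gene, or had the largest range of population means among its accessible regions. The regions that passed the adjusted p alone, those with the largest fold changes, and the Il2rg and Il21 loci, were chosen after their values were seen. The genes and lists were chosen with earlier results of these data known. The fit was tested on simulated data. Alternatives were other normalizations, filters, pseudocounts, weights, covariates, thresholds and flanks, voom on rebuilt counts and each library left out. The differences of called regions within spread classes were added after seeing the data.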

Additional observations from a re-analysis of the deposited data

How the results depend on the processing

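Receptor regions called as more open in the lung than in the lymph node numbered 3, where 1191 of all regions were called. The count was 1 with a pseudocount of 1, a GC correction or voom on the rebuilt counts. Of all regions these settings called 729, 1219 and 979. With the spread class as a covariate it was 10, against 2436 of all regions. Left out 1 at a time, lung IL-4+ replicates 1, 2 and 3 gave 5, 0 and 0. Of all regions these fits called 926, 250 and 816. The fit without lung IL-4+ replicate 1 keeps only narrow-class lung IL-4+ libraries. For the lung populations, with IL-4+ higher, array weights gave 7 in place of 0, where 3121 of all regions were called in place of 123. For lung IFNγ+ over LN IL-4+ cells the count was 1, against 2 with array weights, 3 at 2-fold and 3 with no fold threshold. Of all regions 2469 were called as designed, 3286 with array weights, 3332 at 2-fold and 3445 with no fold threshold. Leaving out 1 LN IL-4+ or lung IFNγ+ library also moved the receptor count, but leaves 1 library in a group. Pathway calls numbered 11, against 53 with array weights, 22 with the spread class as a covariate and 3 to 35 with 1 library left out (3 without either lung IFNγ+ library, 35 without LN IL-4+ replicate 2, and 4 and 26 without replicates 2 and 1 of lung IL-4+). With the replicate block, the counts of receptor regions called were 0 in every comparison and the pathway count was 0, where 0 of all regions were called between the IL-4+ populations and between the lung populations, and 468 and 88 as higher in lung IFNγ+ and in LN IL-4+ cells when those were compared. The sources used here do not say whether equal replicate numbers mark the same mouse. Deviations of same-numbered libraries from the population means correlated between -0.542 and 0.057. These correlations cannot decide pairing, because deviations in a population of 2 libraries mirror each other. Same-numbered LN and lung IL-4+ libraries also belong to opposite spread classes.

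Loci with every lung IL-4+ library above the LN libraries numbered 2, against 5 within the narrow class, 5 within the wide class (Il2rb by 0.00 on the log2 scale) and 2 to 5 with 1 library left out (5 without lung IL-4+ replicate 1 or LN IL-4+ replicate 1). Loci with lung IL-4+ above lung IFNγ+ numbered 3 (3 to 5, with 5 without lung IL-4+ replicate 1), and lung IFNγ+ cells were higher at 0 loci, or 2 within the wide class. For lung IFNγ+ over LN IL-4+ cells they numbered 2, or 5 within the wide class (2 to 5, with 5 without LN IL-4+ replicate 1), and for LN IL-4+ over lung IFNγ+ cells 0 (0 to 3, with 3 without LN IL-4+ replicate 2). The causes of these changes were not tested. No difference of a called region reversed, and other flanks and median centring left the locus counts within 1.5 times. Groups of 2 and 3 libraries, and 52 or more insertions per library at the called regions, set the precision.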
